A study of Rattus norvegicus with 7 samples.

Results

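The change of the postnatal lens between 2 and 4 weeks of age was described in the Ihara Cataract Rat (ICR), an inbred strain that inherits a recessive cataract. The question of this comparison was how gene expression differed between both ages at which the ICR lens was still clear. The 4-week-old and the 2-week-old lens were each measured on 1 GeneChip Rat Gene 2.0 ST array, and both belonged to the strain ICR/Ihr and the condition without cataracts. Per the methods of the study the lenses came from male rats. The labels state that lenses were taken out of culture medium, ground and lysed for total RNA, and give neither the time in medium nor the number of lenses behind an array. Both arrays are part of a series of 7 ICR arrays, 1 per age, whose other lenses were opaque, in the cortex at 8 and 10 weeks, under the posterior capsule at 12 weeks and in the nucleus at 14 and 18 weeks. All 7 come from the cataract strain, so that a difference below is a difference of age within the cataract strain, and lenses of another strain were not analysed here.

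The members are genes. Of 18166 genes with a transcript cluster of their own on the array, 4752 had a log2 value of 5 or more on at least 1 of both arrays and were compared. Of these, 4286 reached 5 on both arrays, 157 only at 4 weeks and 309 only at 2 weeks. Values are log2 signals after the Robust Multi-array Average algorithm (RMA), and a difference is always the 4-week value minus the 2-week value. With 1 array per age there is no replicate error, no test was run and no p-value is given. A gene was called higher or lower where the difference was at least 1 on the log2 scale, that is 2-fold. Genes that reached 5 through only 1 array were selected in part for differing, so counts are also given for the genes at 5 or more on both arrays.

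The lens grows throughout life. A single layer of epithelial cells covers its front, and at the equator these cells leave the cell cycle and elongate into fibre cells, which fill with crystallins, exchange ions through gap junctions and lose their nuclei and organelles. The whole organ is wrapped in a basement membrane, the capsule, and hangs on zonular fibres that run from the ciliary body, a folded and partly pigmented epithelium that secretes the fluid of the anterior eye. Because whole lenses were lysed, fewer cells of a type and less RNA per cell cannot be told apart in these data.

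The lens label held against its markers. The crystallin gene Cryab (13.22 at 4 weeks, 13.16 at 2 weeks), the fibre cell water channel gene Mip (12.47 at 4 weeks, 12.80 at 2 weeks), the beaded filament gene Bfsp1 (12.08 at 4 weeks, 11.97 at 2 weeks) and the fibre membrane gene Lim2 (11.56 at 4 weeks, 11.95 at 2 weeks) were among the brightest signals. Of the epithelial and lineage factors, Prox1 had 8.71 at 4 weeks against 8.60 at 2 weeks, Pax6 had 6.99 at 4 weeks against 7.26 at 2 weeks and Foxe3 had 6.58 at 4 weeks against 6.76 at 2 weeks. Cryaa and Bfsp2 had no cluster with a single gene symbol and were not analysed. Over all clusters the array medians were nearly equal, 2.998 at 4 weeks and 2.999 at 2 weeks, and 4443 named genes reached 5 at 4 weeks against 4595 at 2 weeks.

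Most genes differed little between the ages. The median difference of the 4752 genes was -0.012, 93.3% of them differed by less than 0.5, and the values of both arrays had a Pearson correlation of 0.969 across genes, which are not independent replicates. Losses were more numerous than gains. At 4 weeks 70 genes were 2-fold or more lower (1.47% of the genes compared) and 13 were 2-fold or more higher (0.274%). Among the 4286 genes at 5 or more on both arrays, 18 were lower and 9 were higher. The other 52 lower genes had reached 5 only on the 2-week array, and 4 of the higher genes only on the 4-week array. Just inside the threshold lay Cd300c2l1 (-1.002), Fbln1 (-1.03) and Hmgb4l5 (1.02), and just outside it lay Mmp14 (-0.97), Slc16a6 (-0.96), Park7-ps2 (0.999) and Fos (0.99).

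**Figure D1:**
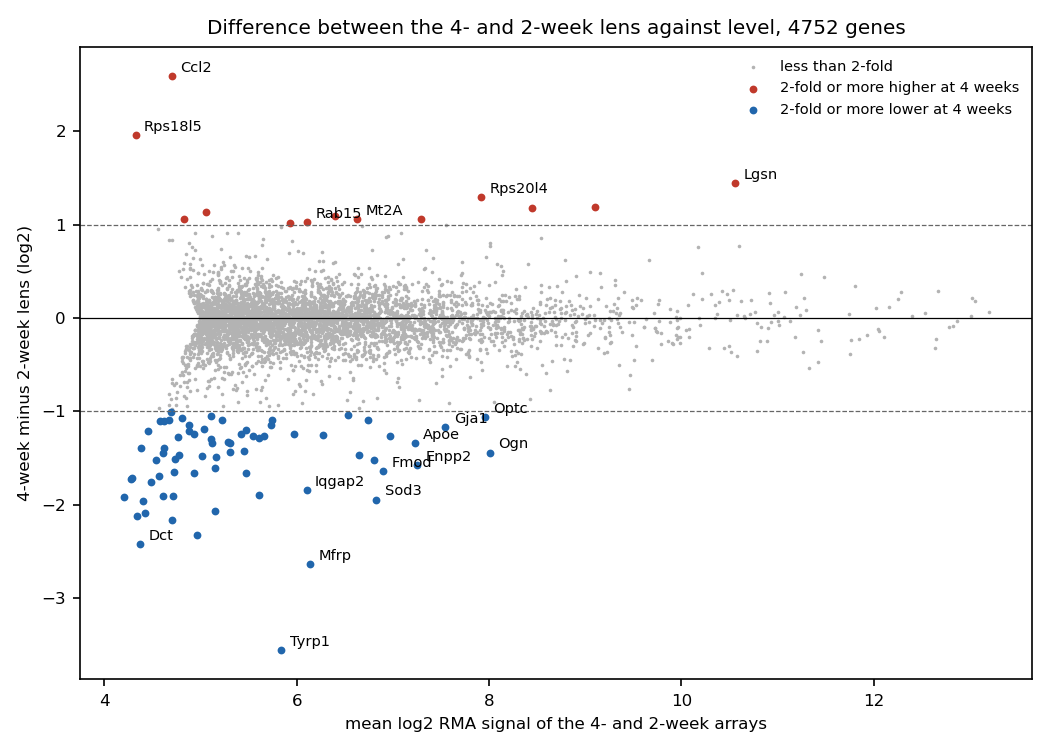
The 4-week minus 2-week difference (log2, vertical axis) against the mean log2 signal of both arrays (horizontal axis) for 4752 genes, with 1 array per age and no error bars. Red points are the 13 genes 2-fold or more higher and blue points the 70 genes 2-fold or more lower at 4 weeks. The blue points lie mostly at low levels, and Tyrp1 (-3.56) and Ccl2 (2.59) are the extremes.

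Several pigment genes were among the largest losses at 4 weeks. Tyrp1, a melanosome enzyme of eumelanin synthesis, had 4.06 at 4 weeks against 7.62 at 2 weeks, an 11.8-fold difference and the largest of the comparison in either direction. Dct, which converts dopachrome in the same pathway, had 3.16 at 4 weeks against 5.58 at 2 weeks, a difference of -2.42. Rab38, a small GTPase that carries these enzymes to the melanosome, had 3.38 at 4 weeks against 5.47 at 2 weeks, and Gpnmb, a membrane protein of melanosomes and lysosomes, had 3.28 at 4 weeks against 5.40 at 2 weeks. All 4 stood above 5 only in the 2-week lens. At the 5 later ages Tyrp1 lay between 2.53 and 3.69 and Dct between 2.49 and 2.95, all below the 4-week level.

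The pigment cell list held 18 genes, of which 16 had a cluster and 5 were compared. Of these 5, 3 were lower (Tyrp1, Dct and Rab38), 60% against 1.47% of all genes compared. Each of the 3 had passed the floor only through its high 2-week value, so that this share and the median of the 5, -2.09, depend on the floor. The other 2, at 5 or more on both arrays, were Mitf and Trpm1, neither past 2-fold, with a median of 0.28, and over all 16 genes without a floor the median was -0.50. Mitf, the master regulator of pigment cells, had 6.54 at 4 weeks against 6.70 at 2 weeks. Trpm1, a cation channel of pigment cells and of retinal bipolar cells, differed the other way, with 7.15 at 4 weeks against 6.42 at 2 weeks. Below the floor the enzyme gene Tyr had 1.57 at 4 weeks against 3.11 at 2 weeks, the melanosome fibril gene Pmel had 3.24 at 4 weeks against 4.88 at 2 weeks, and the exchanger gene Slc24a5 had 2.10 at 4 weeks against 3.77 at 2 weeks. Over the 16 genes with a cluster, 14 had a negative difference. The summed linear signal of these 16 genes was 344 at 4 weeks and 603 at 2 weeks, and lay between 323 and 366 at the later ages.

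The promoters of Tyrp1, Dct and Gpnmb are shown because these genes were among the largest losses at 4 weeks. The windows run from 250 bases before to 50 bases after the start of the gene (RefSeq, build GRCr8), 5′ to 3′ on the strand of the gene, and capitals mark TCATGTG or its reverse complement, an E-box with a T before it that is known in mouse and human as the binding sequence of MITF in pigment genes.
Tyrp1 (chr5:100326875-100327174, plus strand): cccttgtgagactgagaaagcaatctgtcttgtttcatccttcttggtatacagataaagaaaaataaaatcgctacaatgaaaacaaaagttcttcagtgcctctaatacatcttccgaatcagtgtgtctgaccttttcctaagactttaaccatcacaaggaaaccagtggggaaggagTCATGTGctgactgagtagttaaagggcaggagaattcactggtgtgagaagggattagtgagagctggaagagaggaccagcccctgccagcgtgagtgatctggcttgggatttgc
Dct (chr15:101507980-101508279, minus strand): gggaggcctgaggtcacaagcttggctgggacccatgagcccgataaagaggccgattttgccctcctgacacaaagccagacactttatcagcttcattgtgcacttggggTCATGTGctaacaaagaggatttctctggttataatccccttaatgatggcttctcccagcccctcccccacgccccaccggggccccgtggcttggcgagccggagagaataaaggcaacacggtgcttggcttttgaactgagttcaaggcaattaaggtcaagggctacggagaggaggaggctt
Gpnmb (chr4:79340878-79341177, plus strand): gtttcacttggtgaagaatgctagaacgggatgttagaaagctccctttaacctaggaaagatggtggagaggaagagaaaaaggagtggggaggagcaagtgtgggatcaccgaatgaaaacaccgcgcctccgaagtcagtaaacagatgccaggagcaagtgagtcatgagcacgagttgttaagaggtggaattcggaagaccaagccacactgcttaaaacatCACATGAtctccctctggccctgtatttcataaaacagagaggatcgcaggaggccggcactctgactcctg
Counted back from the start, the match began at base -68 in Tyrp1, at base -138 in Dct and at base -22 in Gpnmb. Searched on both strands, 3.56% of the 33469 promoter windows of the table held it. Of the 18 listed pigment cell genes, 13 had a window and 5 of these held the sequence, namely Tyrp1, Dct, Tyr, Mlana and Gpr143. The windows of Mitf, Trpm1 and Pmel were among those without it. Pmel was nevertheless lower, with 3.24 at 4 weeks against 4.88 at 2 weeks. Gpr143, which held it, differed little, with 2.16 at 4 weeks against 2.23 at 2 weeks. A match is a description of the letters and not a site shown to be used.

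The ciliary body and iris list held the most calls of any list. Of its 21 genes, 18 were compared, 9 were lower, none was higher, and the median was -0.93 (17 of 18 negative). The share lower was 50%, against 1.47% of all genes compared, but 10 of the 18 had reached 5 on only 1 array. Bmp4, a growth factor needed for lens induction and ciliary body formation in the mouse, had 4.66 at 4 weeks against 6.56 at 2 weeks. Mab21l2, a gene required for eye development in the mouse, had 3.61 at 4 weeks against 5.36 at 2 weeks. Slc4a5, a sodium bicarbonate cotransporter, had 6.04 at 4 weeks against 7.56 at 2 weeks, both above 5. The transcription factor genes Zic1 (4.63 against 5.95), Zic2 (4.28 against 5.48) and Otx1 (4.28 against 5.35), and the potassium channel gene Kcnj13 (4.46 against 5.75), were lower and had passed 5 only at 2 weeks. Here and below, the first of a pair of values in brackets is the 4-week value and the second the 2-week value. The matrix genes Mfap4 and Optc, which complete the 9, are described with the matrix below. The other listed genes compared did not pass 2-fold. Among them Wfdc1 (4.36 against 5.16), Six6 (4.49 against 5.22) and Ltbp2 (4.36 against 5.05) had the largest differences and had passed 5 only at 2 weeks. Mab21l1, Sfrp1 and Car14 differed least. Mab21l1 had 7.81 at 4 weeks against 7.84 at 2 weeks, the Wnt antagonist gene Sfrp1 had 10.78 at 4 weeks against 10.88 at 2 weeks and the carbonic anhydrase gene Car14 had 6.98 at 4 weeks against 6.74 at 2 weeks. Over the 8 listed genes at 5 or more on both arrays, 3 were lower, against 18 of 4286 over all genes (0.42%). Their median was -0.45, so that the list median depended in part on genes that reached 5 only at 2 weeks. The summed linear signal of the 21 genes was 2779 at 4 weeks and 3628 at 2 weeks, and lay between 2039 and 2459 later.

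Further transcription factor and signalling genes were lower beside them. Lhx9, Lhx2, Sned1, Ltbp1, Cldn19, Enpp2, Apoe, Tmem176a, Tmem176b, Npy, Hunk and Gpm6a, each in no list, were named after their values were seen. The LIM homeobox genes Lhx9 (4.63 against 5.98) and Lhx2 (4.03 against 5.13), which act in early eye development, and Bmp7, a growth factor required for eye formation in the mouse, with 3.66 at 4 weeks against 5.56 at 2 weeks, had passed 5 only at 2 weeks. In the list of FGF, BMP, TGF-beta, Wnt and Notch signalling, 31 of 70 genes were compared. Of these, 2 were lower (Bmp4 and Bmp7), 6.45% against 1.47% of all genes compared, none was higher and the median was -0.13. Bmp4 and Bmp7 had both passed 5 only at 2 weeks. Of the 26 listed genes at 5 or more on both arrays none was lower, so that this share depends on the floor. The BMP target genes Id1 (6.26 against 6.92) and Id3 (4.96 against 5.53) had smaller differences. Receptor genes differed less, for example Bmpr1a with 5.79 at 4 weeks against 5.81 at 2 weeks and Fgfr3 with 6.26 at 4 weeks against 6.27 at 2 weeks, while Fgfr2 had 8.04 at 4 weeks against 8.24 at 2 weeks. Npr3, the clearance receptor of natriuretic peptides, had 3.76 at 4 weeks against 5.67 at 2 weeks. Slit1, a repellent of growing axons, was the gene called in the axon guidance list, with 4.67 at 4 weeks against 5.77 at 2 weeks. Of 16 genes compared there, 1 was lower (6.25%, against 1.47% of all genes compared), and the median was -0.20. Slit1 had passed 5 only at 2 weeks, and none of the 14 at 5 or more on both arrays was lower. Next in size came the synaptic adhesion gene Nlgn1 (5.07 against 5.90) and, in the other direction, the ephrin gene Efnb2 (7.07 against 6.61).

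Genes of the fibrillar and zonular matrix were lower as well. Of 41 listed genes, 15 were compared, 6 were lower and none was higher, with a median of -0.86 (12 of 15 negative). The share lower was 40%, against 1.47% of all genes compared. Of the 6, 5 had values above 5 on both arrays, all but Fbln2. The small leucine-rich proteoglycan genes Ogn and Fmod, whose proteins bind collagen fibrils, had 7.28 at 4 weeks against 8.73 at 2 weeks and 6.08 at 4 weeks against 7.71 at 2 weeks. Optc, which encodes opticin, a proteoglycan of the vitreous and ciliary body, had 7.43 at 4 weeks against 8.49 at 2 weeks. The microfibril gene Mfap4 had 6.34 at 4 weeks against 7.60 at 2 weeks, and the fibulin genes Fbln1 and Fbln2 had 6.01 at 4 weeks against 7.05 at 2 weeks and 3.91 at 4 weeks against 5.55 at 2 weeks. Fbn1, the fibrillin of the zonule, did not reach the 2-fold threshold, with 6.41 at 4 weeks against 7.26 at 2 weeks. Periostin (Postn), below the floor, had 1.90 at 4 weeks against 4.62 at 2 weeks. Mfap2 (6.73 against 6.71) and the type I collagen gene Col1a2 (5.08 against 4.56) differed little or the other way. The 11 listed genes at 5 or more on both arrays had the median of -0.86 too, and 5 of them were lower.

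The capsule genes differed from these. Of 15 compared genes of the lens capsule basement membrane, 1 was lower, none was higher, 10 were positive and the median was 0.13. The gene called was Nid2, a nidogen that links laminin and type IV collagen, with 4.80 at 4 weeks against 6.04 at 2 weeks, whereas its relative Nid1 had 10.14 at 4 weeks against 10.01 at 2 weeks. The type IV collagen genes had values of 7.71 at 4 weeks against 7.47 at 2 weeks (Col4a1), 6.55 at 4 weeks against 6.11 at 2 weeks (Col4a3) and 6.29 at 4 weeks against 6.01 at 2 weeks (Col4a4). The integrin gene Itga6 had 6.35 at 4 weeks against 5.96 at 2 weeks. Other matrix genes outside both lists were lower, namely Vcan, a large hyaluronan-binding proteoglycan (3.72 against 5.41), Sned1 (5.65 against 6.90) and Ltbp1, a latent TGF-beta binding protein (3.85 against 5.06).

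Transporter genes made a further group. Of 344 genes named as solute carriers, 74 were compared, 8 were lower and none was higher, with a median of -0.19 (53 of 74 negative). The share lower was 10.8%, against 1.47% of all genes compared, but 4 of the 8 had passed 5 only at 2 weeks, and over all 344 genes without a floor the median was 0.00 (161 negative and 115 positive). Besides Slc4a5, values above 5 on both arrays were found for the glycine transporter gene Slc6a9 (5.91 at 4 weeks against 7.38 at 2 weeks), the GABA transporter gene Slc6a13 (6.19 at 4 weeks against 7.28 at 2 weeks) and the sodium bicarbonate cotransporter gene Slc4a4 (5.03 at 4 weeks against 6.29 at 2 weeks). Slc7a11, the cystine and glutamate exchanger that feeds glutathione synthesis, had 4.42 at 4 weeks against 5.91 at 2 weeks. Slc16a10, which carries aromatic amino acids and thyroid hormones, had 4.05 at 4 weeks against 5.51 at 2 weeks, and the sulphate and cationic amino acid transporter genes Slc13a4 (4.87 against 6.07) and Slc7a1 (4.58 against 5.63) were lower too. Slco1c1, a thyroid hormone transporter not in that list by name, had 3.62 at 4 weeks against 5.78 at 2 weeks. In the list of water and ion transport, 15 genes were compared and 3 were lower (Kcnj13, Atp1b1 and Slc4a4). The share lower was 20%, against 1.47% of all genes compared, and the median was 0.01. Kcnj13 and Atp1b1 had passed 5 only at 2 weeks, and of the 12 listed genes at 5 or more on both arrays 1 was lower. Atp1b1, a sodium pump subunit gene, had 4.91 at 4 weeks against 6.18 at 2 weeks, while the subunit gene Atp1b3 had 8.41 at 4 weeks against 8.45 at 2 weeks. Of the aquaporin genes, Aqp1 had 5.84 at 4 weeks against 6.40 at 2 weeks and Aqp5 had 5.43 at 4 weeks against 4.93 at 2 weeks, neither past 2-fold.

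**Figure D2:**
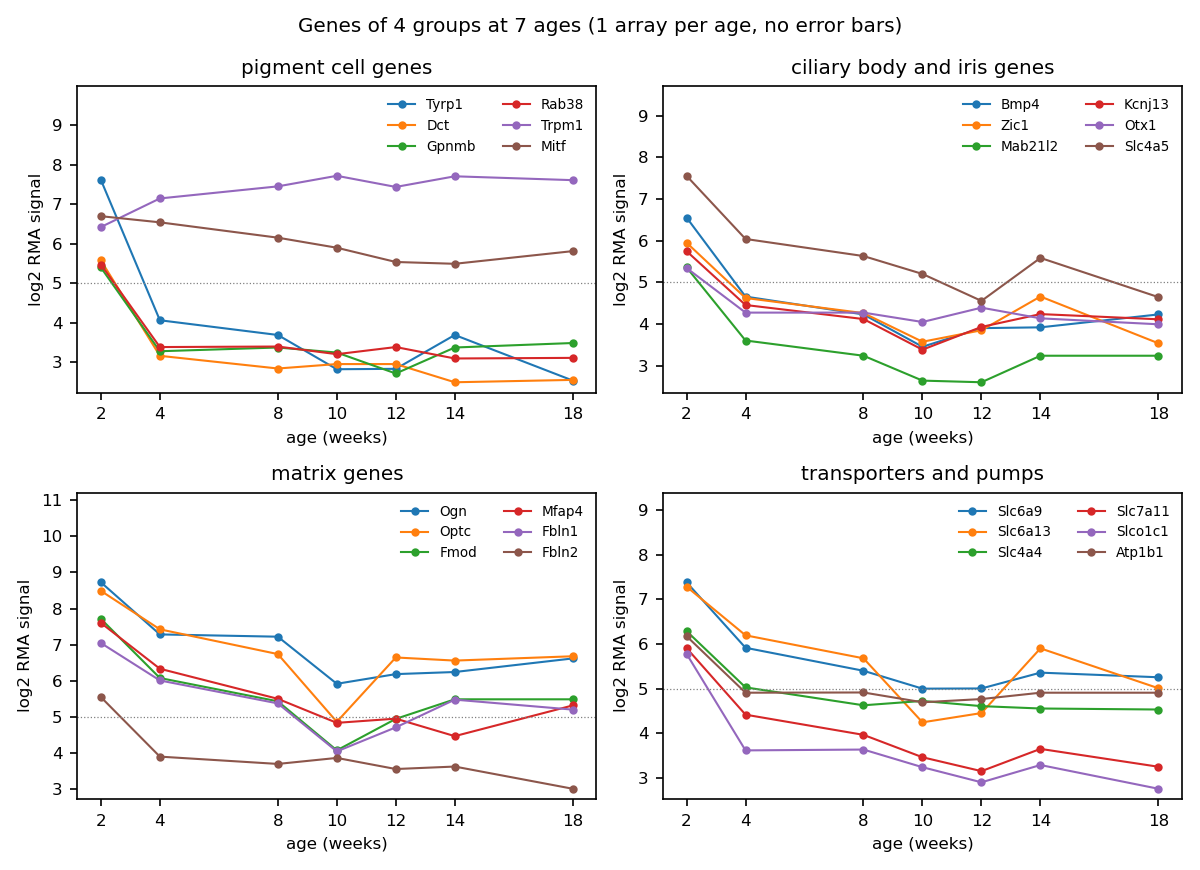
Log2 signals (vertical axis) at 7 ages in weeks (horizontal axis) for pigment cell genes with Gpnmb, ciliary body and iris genes, matrix genes and transporters, with 1 array per age, no error bars and the floor of 5 dotted. In each panel most genes have their highest value at 2 weeks, and Trpm1 and Mitf do not share the course of Tyrp1.

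Of the 70 lower genes, 38 were in none of the lists. Mfrp, a membrane protein of the pigment and ciliary epithelium that is needed for eye growth, came second of all genes, with 4.82 at 4 weeks against 7.46 at 2 weeks. Pld5, a relative of the phospholipase D enzymes, had 3.81 at 4 weeks against 6.13 at 2 weeks. Cldn1 and Cldn19, tight junction claudins, had 3.42 at 4 weeks against 5.38 at 2 weeks and 4.07 at 4 weeks against 5.17 at 2 weeks, and Cldn12, also compared, had 5.13 at 4 weeks against 5.23 at 2 weeks. Iqgap2, a scaffold protein of the actin cytoskeleton, had 5.18 at 4 weeks against 7.02 at 2 weeks, and Enpp2, the enzyme that makes lysophosphatidic acid, had 6.46 at 4 weeks against 8.03 at 2 weeks. Apoe, a lipid carrier, had 6.56 at 4 weeks against 7.89 at 2 weeks. Tmem176a (4.35 against 5.96) and Tmem176b (5.36 against 6.59), neighbouring membrane protein genes, were lower together, as were the genes of the neuropeptides Npy (4.27 against 5.75) and Npvf (4.10 against 5.76). Olfm3, an olfactomedin (3.24 against 5.16), A2m, a protease inhibitor (3.41 against 5.14), Lrrn1 (3.43 against 5.14) and the kinase gene Hunk (4.64 against 6.30) had differences of -1.92, -1.73, -1.71 and -1.65. Gpm6a, a neuronal membrane glycoprotein, had 5.20 at 4 weeks against 6.29 at 2 weeks.

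Single genes of other lists were lower. Sod3, the extracellular superoxide dismutase, had 5.86 at 4 weeks against 7.80 at 2 weeks and was the single gene called among 24 antioxidant and glutathione genes, whose median was -0.04. The cytosolic Sod1 (6.91 against 6.65) and mitochondrial Sod2 (5.44 against 5.26) had small positive differences, and the heme oxygenase gene Hmox1 had 8.61 at 4 weeks against 9.06 at 2 weeks. Lcn2, a siderophore-binding lipocalin of the acute phase, had 4.12 at 4 weeks against 6.18 at 2 weeks. Igfbp2, which binds insulin-like growth factors, had 4.13 at 4 weeks against 5.40 at 2 weeks and was the single call among 8 growth and imprinted genes (median -0.14), with Igf2r at 6.33 against 6.79 and Igfbp7 at 12.22 against 12.10. Gja1, connexin 43 of the lens epithelium, had 6.96 at 4 weeks against 8.13 at 2 weeks.

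**Figure D3:**
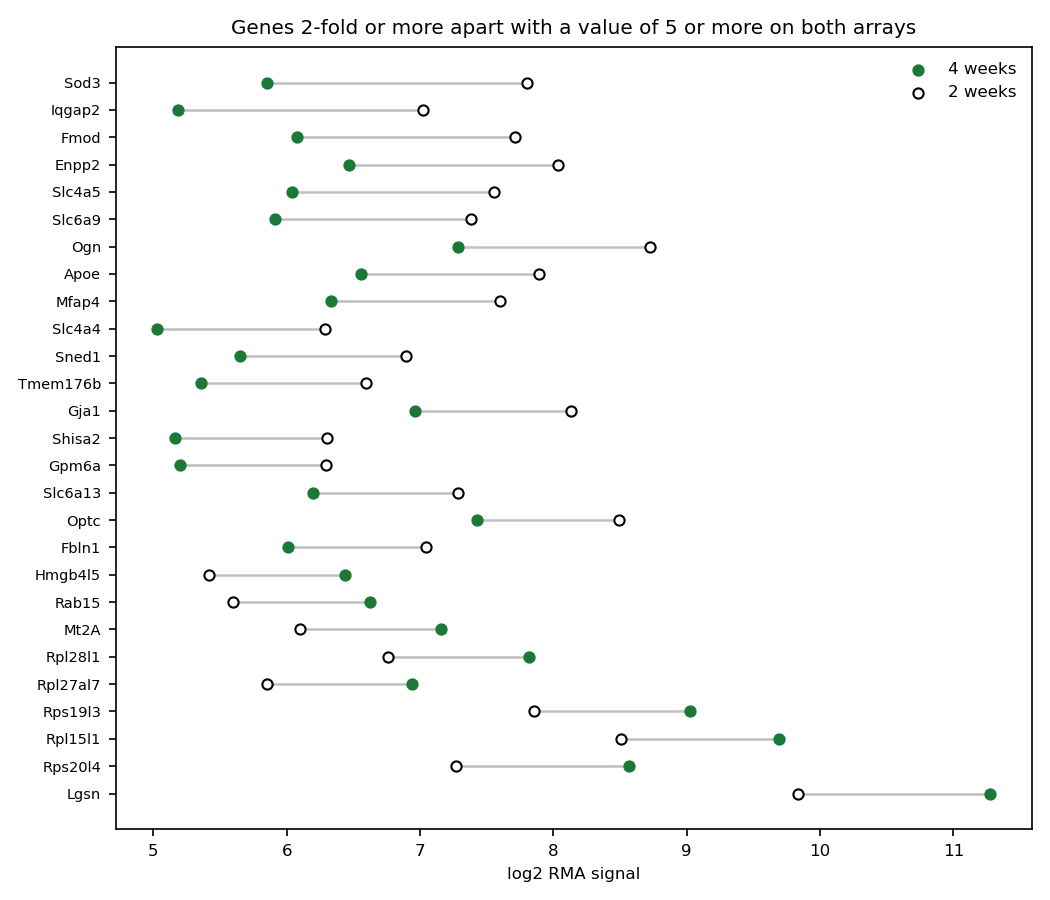
Log2 signals (horizontal axis) at 4 weeks (filled green) and at 2 weeks (open) for the 18 lower and 9 higher genes with a value of 5 or more on both arrays, 1 array per age and no error bars. Sod3 has the widest gap among the lower genes and Lgsn among the higher genes.

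Among the genes that define the lens itself, Gja1 and Lgsn were the genes past 2-fold. Of 24 epithelial and lineage genes compared, Gja1 was the 1 lower gene, none was higher, 19 were negative and the median was -0.15. Next came the homeobox gene Meis1 (4.41 against 5.25) and the endoplasmic reticulum stress gene Herpud1 (6.12 against 6.76), and Cdh1, the epithelial cadherin, had 7.13 at 4 weeks against 6.80 at 2 weeks. Of 19 fibre cell genes, 1 was higher (Lgsn), none was lower and the median was -0.08. The connexin family gene Gje1 (7.10 against 7.80) and the calpain gene Capn3 (7.49 against 8.12) had negative differences short of 2-fold, and the DNase of fibre cell denucleation, Dnase2b, had 8.61 at 4 weeks against 8.56 at 2 weeks. Of 8 gamma-crystallin genes, the 7 with a cluster were compared and none was called, with 6 positive and a median of 0.29. Cryge had 11.48 at 4 weeks against 11.01 at 2 weeks, Crygf had 11.71 at 4 weeks against 11.27 at 2 weeks and Crygb had 11.98 at 4 weeks against 11.64 at 2 weeks, whereas Crygn had 11.73 at 4 weeks against 11.96 at 2 weeks. In the 5 later lenses the summed linear signal of the gamma-crystallins lay between 17209 and 30861, below both the 4-week sum of 35831 and the 2-week sum of 31136. Of 8 alpha- and beta-crystallin genes, 5 had no cluster with a single gene symbol and were not analysed. The 3 compared, Cryab, Cryba1 (13.14 against 12.96) and Cryba2 (13.02 against 12.998), differed by no more than 0.18.

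Lgsn, lengsin, a fibre cell protein of the glutamine synthetase superfamily, was the brightest gene called. It had 11.28 at 4 weeks against 9.83 at 2 weeks, a 2.72-fold difference, and lay between 11.96 and 12.28 at the 5 later ages. Its differences in the other pairs of neighbouring ages within a stage were 0.02 (10 minus 8 weeks) and 0.20 (18 minus 14 weeks). Rab15, a small GTPase of endosomes, had 6.62 at 4 weeks against 5.60 at 2 weeks and then lay between 6.54 and 6.66. In both genes the 2-week array held the lowest of 7 values and the later values differed little from each other.

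Ccl2, the chemokine that attracts monocytes, was the largest gain. It had 6.001 at 4 weeks against 3.41 at 2 weeks, a 6.03-fold difference, and ranged between 4.50 (10 weeks) and 7.66 (12 weeks) later. Of 26 genes with a cluster in the list of macrophages and other immune cells, Ccl2 alone reached 5. The list therefore cannot show whether immune cells accompanied it. Without a floor 18 of the 26 were negative and 7, with Ccl2, positive, and the median was -0.11. The pan-leukocyte gene Ptprc had 1.58 at 4 weeks against 2.48 at 2 weeks, Cd68 had 2.44 at 4 weeks against 2.45 at 2 weeks and Csf1r had 3.25 at 4 weeks against 3.41 at 2 weeks. Cd79a differed the other way, with 3.82 at 4 weeks against 3.47 at 2 weeks. The immediate early genes are switched on by cells within minutes of a stimulus. Of 11 compared, none was called and 7 were positive, with a median of 0.34. Fos was just short of 2-fold, with 7.18 at 4 weeks against 6.19 at 2 weeks, followed by Ier3 (6.03 against 5.24), Egr1 (6.67 against 6.08) and Jun (6.44 against 5.94), while Klf2 (4.40 against 5.09) and Klf6 (5.92 against 6.49) had negative differences. Socs3, the feedback inhibitor of cytokine signalling, had 4.93 at 4 weeks against 3.62 at 2 weeks and was under the floor of 5. These genes varied among later ages too: Fos differed by -1.82 between 10 and 8 weeks and Ccl2 by -1.20. Whether the handling of a lens moved them was not tested.

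Metallothionein genes, whose small proteins bind zinc and copper, had positive differences, and 1 was called. Mt2A had 7.16 at 4 weeks against 6.10 at 2 weeks, a 2.08-fold difference. Mt1 had 6.37 at 4 weeks against 5.66 at 2 weeks and Mt1f had 5.84 at 4 weeks against 4.93 at 2 weeks, both short of 2-fold, and Mt3 and Mt4 did not reach 5. At the later ages Mt2A ranged between 7.87 (10 weeks) and 11.28 (14 weeks), and Mt1 between 6.09 and 9.16. All 3 had their lowest values in the 2-week lens, and the 10-week lens lay below its 8- and 12-week neighbours. Their promoters are shown with the cores of the metal response element, TGCACNC and TGCGCNC, in capitals on either strand. These cores are known in the mouse as binding sequences of the zinc-sensing factor MTF1.
Mt2A (chr19:10838659-10838958, minus strand): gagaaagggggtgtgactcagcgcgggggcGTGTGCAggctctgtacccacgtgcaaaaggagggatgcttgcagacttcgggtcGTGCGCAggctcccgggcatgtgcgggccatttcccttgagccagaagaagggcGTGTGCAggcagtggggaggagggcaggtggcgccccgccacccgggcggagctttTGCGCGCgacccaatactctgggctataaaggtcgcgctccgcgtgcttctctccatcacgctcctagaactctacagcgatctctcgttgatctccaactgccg
Mt1 (chr19:10832926-10833225, minus strand): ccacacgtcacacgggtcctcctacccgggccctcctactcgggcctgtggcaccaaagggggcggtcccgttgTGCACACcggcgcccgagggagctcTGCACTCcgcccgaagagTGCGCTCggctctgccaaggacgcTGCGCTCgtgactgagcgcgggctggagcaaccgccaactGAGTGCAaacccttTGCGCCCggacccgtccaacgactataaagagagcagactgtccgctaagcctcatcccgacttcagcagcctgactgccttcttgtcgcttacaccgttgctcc
The window of Mt2A held 4 matches, between bases -220 and -55, and that of Mt1 held 6, between bases -176 and -55. At least 1 match is common, since 24.2% of the 33469 windows held it. The window of Mt1f held none.

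Ribosomal protein genes made up 7 of the 13 higher genes. Of 81 cytosolic ribosomal protein genes compared, 7 were higher, none was lower and 60 were positive, with a median of 0.18. The share higher was 8.64%, against 0.274% of all genes compared. Rps18l5 had 5.30 at 4 weeks against 3.35 at 2 weeks, and the other calls were Rps20l4 (8.56 against 7.27), Rpl15l1 (9.70 against 8.51), Rps19l3 (9.03 against 7.86), Rpl27al7 (6.94 against 5.85), Rpl28l1 (7.82 against 6.76) and Rps3a (5.36 against 4.30). Except for Rps3a these symbols carry an l and a number behind the number of the protein, which names a copy or close relative of that gene. Such symbols made up 39 of the 81, with 6 calls, 36 positive differences and a median of 0.47. The other 42 symbols had 1 call, 24 positive differences and a median of 0.04. Outside the 81, 9 ribosomal protein pseudogene symbols had no call, 7 positive differences and a median of 0.28. Of the genes with the plain name, Rps20 had 9.95 at 4 weeks against 9.95 at 2 weeks and Rps19 had 8.79 at 4 weeks against 8.46 at 2 weeks, smaller differences than those of Rps20l4 and Rps19l3. Rpl41, the lowest of the 81, had 11.05 at 4 weeks against 11.59 at 2 weeks. Near-identical copies can share probe sequence with each other and with the parent gene, so the source of these signals is uncertain. The split by symbol was chosen after the values were seen. The remaining higher genes were Cpsf4l2 (5.63 against 4.49) and Hmgb4l5 (6.43 against 5.42), which are named as copies too.

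**Figure D4:**
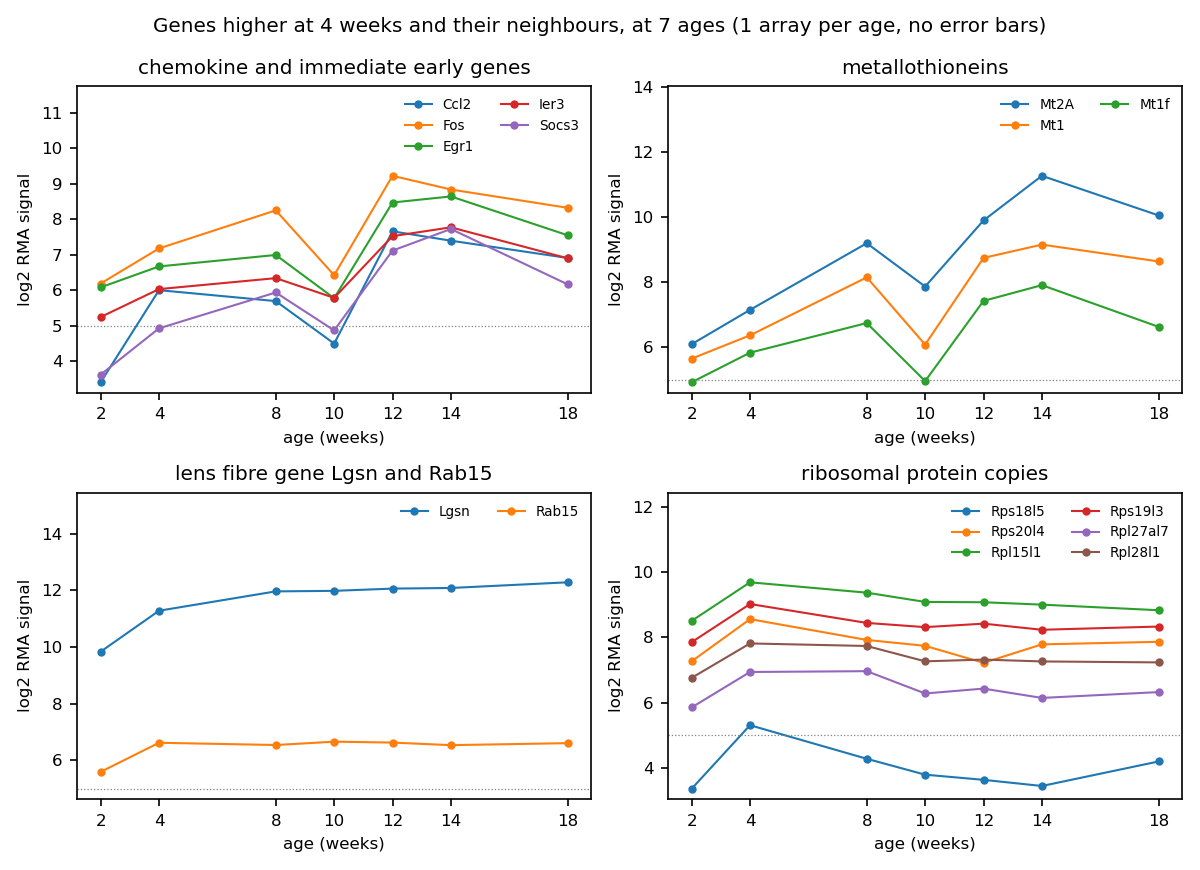
Log2 signals (vertical axis) at 7 ages in weeks (horizontal axis) for Ccl2 with immediate early genes, metallothioneins, Lgsn with Rab15, and ribosomal protein copies, with 1 array per age, no error bars and the floor of 5 dotted. Rab15 is level from 4 weeks and Lgsn from 8 weeks, the metallothioneins and immediate early genes dip at 10 weeks, and Rps18l5 is at its highest at 4 weeks.

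Housekeeping and metabolic lists held no call and had medians near that of all genes. They were respiratory chain subunits (65 compared, median -0.04), mitochondrial ribosomal proteins (42, median 0.00), proteasome subunits (31, median 0.00), cholesterol synthesis (11, median -0.04), fatty acid synthesis (15, median -0.05), glycolysis and polyol pathway (15, median 0.07), heat shock chaperones (14, median -0.07), autophagy and mitophagy (15, median -0.12), unfolded protein response (13, median -0.05), circadian clock (9, median 0.07), calpains (6, median -0.05) and histones (19, median -0.04). The widest differences within them were those of the histone genes H4c14 (5.34 against 6.27) and H2ac4 (5.12 against 4.29) and of the lactate carrier gene Slc16a1 (4.94 against 5.83). Others were smaller, such as Ndufs5 of the respiratory chain (5.69 against 6.24), Atg5 of autophagosome formation (5.28 against 5.79), and Idi1 (6.21 against 6.53) and Sqle (5.17 against 5.48) of cholesterol synthesis. Of 21 genes of amino acid supply and the integrated stress response, 1 was lower (Slc7a11), 19 were negative and the median was -0.21. Slc7a11 had passed 5 only at 2 weeks, and none of the 17 at 5 or more on both arrays was lower. The glutathione-degrading enzyme gene Chac1 (4.73 against 5.45) and the amino acid transporter gene Slc1a4 (5.91 against 6.58) had negative differences short of 2-fold, but the stress factor gene Ddit3 had 5.31 at 4 weeks against 4.58 at 2 weeks. The glucocorticoid response list had 5 genes compared, with Mt2A higher (20%, against 0.274% of all genes) and Lcn2 lower (20%, against 1.47%). The thyroid hormone list had 4, with Slc16a10 lower (25%, against 1.47%). Lcn2 and Slc16a10 had passed 5 only at 2 weeks, and neither list held a lower gene at 5 or more on both arrays. Of the Sox, Fox, Hox, Klf and Zic transcription factors 17 were compared, and Zic1 and Zic2 were lower (11.8%, against 1.47% of all genes). Both are also in the ciliary body and iris list and had passed 5 only at 2 weeks. None of the 13 at 5 or more on both arrays was lower, so the share depends on the floor. Proliferation genes were mostly too dim to compare. Of 45 cell cycle genes with a cluster, 5 reached the floor, none was called, and they included the thymidylate synthase gene Tyms (4.49 against 5.09), Pcna (5.61 against 5.72) and the cyclin gene Ccnd2 (6.67 against 6.86). Mki67, at 4.66 against 4.60, was below it.

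**Figure D5:**
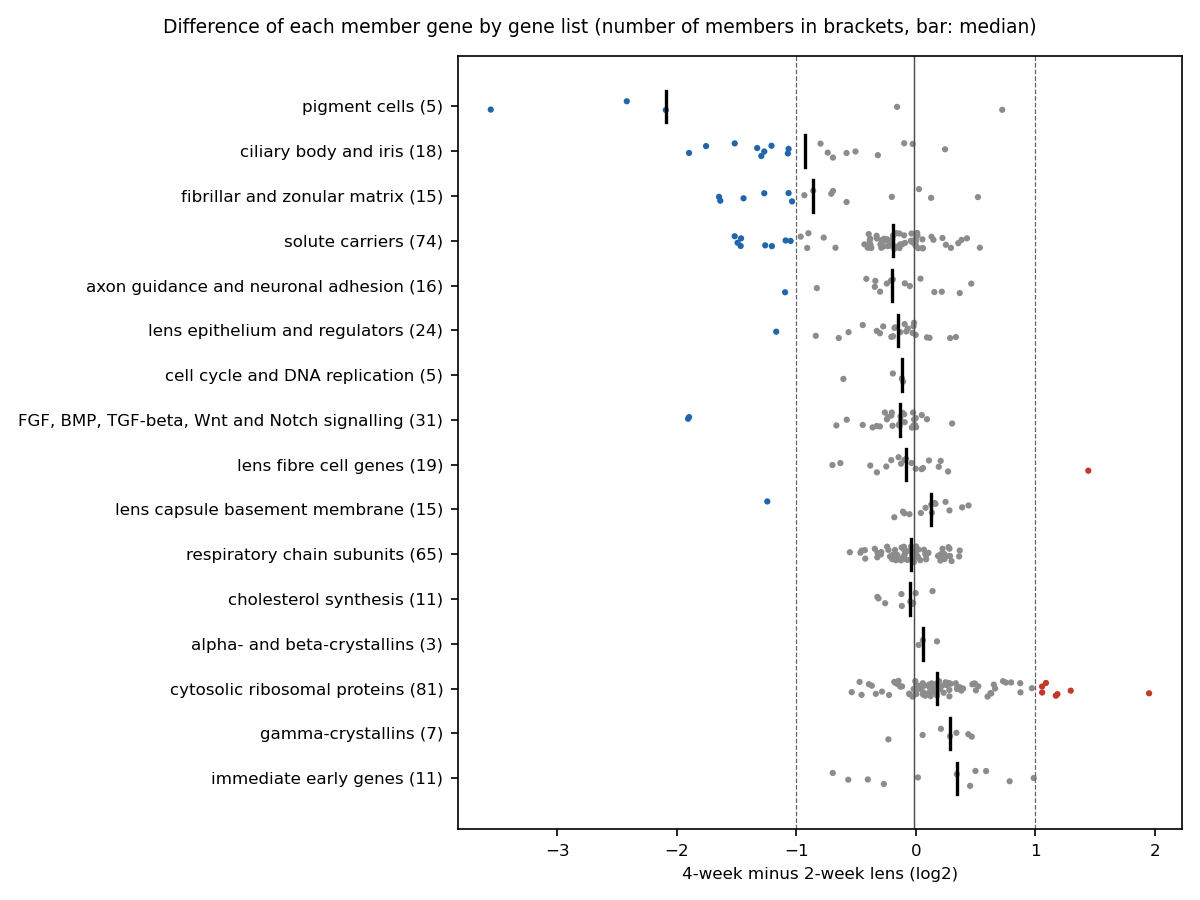
The 4-week minus 2-week difference (log2, horizontal axis) of each compared gene, by gene list, with the number of compared genes in brackets, a black bar at the list median and thin lines at the median of all genes and at 2-fold. The pigment, ciliary body and matrix lists have medians of -2.09, -0.93 and -0.86, which over their genes at 5 or more on both arrays are 0.28, -0.45 and -0.86, and the other lists shown lie within 0.5 of the median of all genes.

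Markers of other tissues were examined beside these groups. Of blood vessel and pericyte markers, 1 of 18 with a cluster was compared, the pericyte gene Rgs5, which was lower with 4.97 at 4 weeks against 6.25 at 2 weeks. Below the floor the endothelial genes Tek (2.67 against 3.82) and Cdh5 (3.33 against 4.06) had negative differences, while Flt1 (3.10 against 3.10) and Ramp2 (4.51 against 4.28) did not. Without a floor 13 of the 18 genes were negative and 4 positive, with a median of -0.14. The summed linear signal of the vessel list was 191 at 4 weeks and 269 at 2 weeks. Of 11 blood cell markers none reached 5. Among 29 photoreceptor and retinal markers the calcium-binding protein gene Pvalb was the 1 compared (7.89 against 7.95). Below the floor the rod genes Sag (2.63 against 3.62) and Gnat1 (3.04 against 3.85) had negative differences. Without a floor 17 of the 29 genes were negative and 6 positive, with a median of -0.03. The summed linear signal of that list was 428 at 4 weeks and 475 at 2 weeks. Muscle had 2 compared genes and cornea 1, with no call. The called genes of the vessel, pigment and ciliary body lists were lower in the same comparison as the called matrix and transporter genes. Some genes, such as Mfap4 and Optc, belong to more than 1 of these lists. With 1 array per age a shared course cannot be read from this. The part of tissue around the lens in those differences was not tested.

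The size of the 4-week change was set against the other intervals between neighbouring ages of 1 stage, which share no array with it. Between 10 and 8 weeks 49 of 4560 genes were 2-fold lower (1.07%) and 1 was higher (0.0219%), and between 18 and 14 weeks 20 of 4625 were lower (0.432%) and 9 higher (0.195%). The SD of the differences over genes was 0.31 for 4 minus 2 weeks, 0.29 for 10 minus 8 weeks and 0.28 for 18 minus 14 weeks, and the share of genes within 0.5 was 93.3%, 91.7% and 93.8% in that order.

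Most of the lower genes also had a negative difference between 10 and 8 weeks, an interval that leaves out the course from 4 to 8 weeks. At 4 weeks 52 of the 70 were below 5. Of the 70, 58 had a negative difference in that interval, with a median of -0.44, against 59.4% negative and a median of -0.05 over all genes compared. Among the 18 lower genes at 5 or more on both arrays, 16 were negative with a median of -1.14. Sod3 (-2.45), Enpp2 (-2.29) and Optc (-1.87) had the 3 largest falls of the 70, while Dct differed by 0.11 and Rab38 by -0.19, both already low at 4 weeks. Before that interval Enpp2 went from 6.46 at 4 weeks to 6.86 at 8 weeks, and Sod3 from 5.86 to 5.82. Between 18 and 14 weeks 45 of the 70 were negative, with a median of -0.16, against 31.7% and a median of 0.07 over all genes. The nuclear stage mean minus the cortical stage mean had a median of 0.04 over the 70 genes and 0.02 over all.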

How the data were processed

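Total RNA of whole lenses of 7 ages was hybridised, 1 array per age, to GeneChip Rat Gene 2.0 ST arrays by the authors. Per the labels and the study's methods the authors ran RMA on the arrays in R, and each deposited value is the log2 signal of a transcript cluster. Of 36685 clusters, 18511 carried 1 gene symbol, 575 several and 17599 none. The current RefSeq symbol was used for 18394 and the file's own for 117. For each gene the cluster of highest mean over the 7 arrays was taken. Differences were computed with Python 3.11.15, numpy 2.4.6 and pandas 2.3.3, and the loess alternative with statsmodels 0.14.6. The scripts were tested on simulated data.

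The members and the 41 gene lists were chosen with earlier results of these data known. Named genes were the 20 with the largest differences each way, in each list those past 2-fold or, where these were fewer than 3, from the 3 largest, and the defining lens markers. Other genes were named after their values were seen, for contrast or as values below the floor. With 1 array per age, age cannot be told apart from anything else that differed between both lenses or arrays. Alternatives changed the floor, the fold, the choice of cluster and the normalisation.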

Additional observations from a re-analysis of the deposited data

How the results depend on the processing

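The counts depended on the floor and the fold. The 70 lower genes became 30 with a floor of 6, 18 with a floor of 5 on both arrays, 129 with no floor and 168 at 1.5-fold, and the 13 higher genes became 27 with no floor and 63 at 1.5-fold. All 30 lower genes at the floor of 6 were among the 70. The higher count was 10 with a floor of 6 and 9 with the floor on both arrays. Loess correction of the difference on the mean level gave 19 higher and 55 lower genes. The median of the ciliary body and iris list, -0.93, was -0.69 with a floor of 6, -0.80 with no floor, -0.45 with the floor on both arrays and -0.69 after loess. That of the pigment cell list, -2.09, was -0.16 with a floor of 6, -0.50 with no floor and -1.44 after loess, and with the floor on both arrays its 2 remaining genes had a median of 0.28 and none was lower. That of the fibrillar and zonular matrix list, -0.86, was -0.39 with no floor. The number of lists with a median more than 0.5 from that of all genes, 3, was 1 with the floor on both arrays. A change of floor or fold changes by construction which genes are counted, and for loess the cause was not tested. None of the 57 named genes past 2-fold changed sign under the 5 alternatives of cluster or normalisation, while 6 fell below 2-fold after loess and 1 after centring. Among named genes short of 2-fold, 1 changed sign under quantile normalisation. No paired analysis was possible because each age has 1 array. Signals near or below the floor can include background, which limits the folds of genes that pass 5 on 1 array.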

Other observations

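Clusters without a gene symbol showed the opposite balance to the named genes. Of 17599 such clusters 2376 reached the floor on at least 1 of both arrays, and 92 of these were 2-fold higher at 4 weeks (3.87%) and 40 lower (1.68%), with a median of 0.07. What these clusters measure was not analysed here. Among 173 clusters with several symbols that reached the floor, none was higher and 1 was lower.

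Precursor transcripts of microRNAs that reached the floor held no 2-fold difference. Mir204, of a family abundant in the eye, had 4.58 at 4 weeks and 5.35 at 2 weeks, Mir345 had 4.39 at 4 weeks and 5.33 at 2 weeks, and Mir138-2 had 5.63 at 4 weeks and 4.98 at 2 weeks. An array of this kind reads the precursor and not the mature microRNA. Of the 4752 genes compared, 295 had the identical value on both arrays and 1075 had a value shared by at least 3 of the 7 arrays, within 1e-06.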
